A study of Mus musculus with 22 samples.

Results

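This account concerns the response of valosin-containing protein transgenic (VCP TG) mouse hearts to 2 weeks of transverse aortic constriction (TAC), an operation that narrows the aortic arch and loads the left ventricle with high pressure. The 3 VCP TG libraries collected after TAC were compared with the 4 VCP TG libraries collected 2 weeks after a sham operation, 7 of the 22 libraries of the study. All animals were FVB mice, 3-5 months old, every library was made from total RNA of left ventricular tissue, and all 7 mice carried the VCP transgene. The wild-type (WT) side of the design, 4 mice after sham and 4 after 2 weeks of TAC, was used only to ask whether a change differed between the genotypes. The promoter and species of the transgene were not given in the sources used here. The labels number the libraries of a group but say no more about how they are separate, and the p-values rest on the spread between them, part of which may be technical. Genes were followed if they were named, protein-coding and at 5 TPM (transcripts per 1000000 transcripts, scaled for gene length) or more in at least 3 of the 7 libraries, which held for 7603 of 19503 such genes in a table of 30735. Of these, 4523 reached 5 TPM in all 7 libraries, 427 reached it in just 3 (median of their mean levels 4.89 TPM), and the 563 genes just outside, at 5 TPM in 2 libraries, had a median of 4.34 TPM.

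Valosin-containing protein is an ATPase that pulls ubiquitin-tagged proteins out of membranes, chromatin and complexes so that the proteasome can degrade them, and it also serves autophagy and mitochondrial quality control. Pressure overload is known to induce a fetal gene programme in cardiomyocytes, with natriuretic peptides, skeletal actin and beta myosin. Within minutes to hours of stretch, hormonal or surgical stimulation, heart cells also transcribe immediate early genes, a set of transcription factors and signalling inhibitors such as Egr1 and Fos that are switched on without new protein synthesis and switched off again soon after.

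The libraries differed among themselves in ways that touch every result below. Sham replicate 4 held 72.9% of its TPM in mitochondrially encoded transcripts, against 27.9% to 53.0% in the other shams and 40.2% to 51.6% after TAC, and the median level of the followed genes was 6.56 TPM there against 11.4 to 17.2 elsewhere. Sham replicate 3 stood apart in tissue markers, with a summed level of 14 atrial markers of 11909 TPM (174 to 1945 in the other shams, 214 to 4573 after TAC) and of 7 red blood cell markers of 2189 TPM (106 to 283, and 86.6 to 90.6 after TAC). All 12 cardiomyocyte markers were present in every group, with sums of 21540 to 47582 TPM after sham and 29632 to 36713 TPM after TAC. The sums overlapped between the groups for 14 endothelial, 12 fibroblast, 12 smooth muscle and 13 macrophage markers. In bulk tissue, fewer cells of a type and less RNA per cell cannot be told apart. Vcp itself was at 73.5 to 186 TPM in VCP TG sham against 45.7 to 82.6 TPM in WT sham, so the ranges overlapped. Across the followed genes the median SD of log2(TPM + 1) was 0.63 after sham and 0.16 after TAC, and 0.40 and 0.27 when TPM was rescaled to nuclear protein-coding genes. Of the 7603 followed genes, 4259 had log2 fold changes below 0 and 3344 above, with a median of -0.03. That median was 0.10 without sham replicate 3, -0.29 without sham replicate 4 and -0.33 with the nuclear scaling. The gene lists below are to be read against these values.

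At 2 weeks of TAC the early response gene Egr1 was lower in the transgenic ventricle and passed the test, and the other immediate early genes had lower log2 means without passing. In limma's test on log2(TPM + 1), 53 of 14554 genes passed an adjusted p of 0.05 (0.364%), 51 higher after TAC (0.35%) and 2 lower (0.0137%). Only 3 of the followed genes were among them (0.0395% of 7603): Egr1 was lower, and Mup9 and Srsy were higher. By annotated type, 39 of the 53 were pseudogenes or immunoglobulin segments, 13 were protein-coding and 1 had no annotation. At an unadjusted limma p of 0.05, 2.35% of the followed genes differed: 1.97% were higher (5.24% of all genes tested) and 0.381% were lower (0.522% of all). The TAC and sham libraries did not overlap for 61 followed genes that were higher after TAC (0.802%, against 3.06% of all genes tested) and 58 that were lower (0.763%, against 0.68%). Genes that reached 5 TPM in at least 3 sham libraries and in no TAC library (140 genes), or in all 3 TAC libraries and no sham library (8 genes), entered through the group in which they were high and so had to differ. Egr1 is among the 140, and Mup9 and Srsy are among the 8, so all 3 followed genes that passed entered in this way.

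Egr1 encodes a zinc finger transcription factor that is among the first genes transcribed after stretch or growth factor signals (GRCm38, chr18:34859823-34864984). It was at 99.5, 43.3, 296.5 and 26.1 TPM in the 4 sham libraries and at 3.33, 4.71 and 3.35 TPM after TAC. The groups were far apart, and every TAC library was below 5 TPM. The log2 fold change was -4.03 ± 0.70 (SE, n = 3 against 4; limma, adjusted p = 0.0492). The direction held under every setting tried, but the call was close to the threshold. It was lost without sham replicate 1 (limma, adjusted p = 0.161), without sham replicate 4 (0.0972) and in 8 of 11 other settings (0.0551 to 0.301), while the adjusted p was 3.06e-05 without sham replicate 3.

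Egr1 belongs to the immediate early list. All 18 followed members of the list had lower log2 means after TAC than after sham, as had 4259 of all 7603 followed genes. The list's median log2 fold change was -1.74, against -0.03 over all followed genes. Of the 18, 6 (Egr1, Fos, Nr4a1, Btg2, Ier2 and Junb) were among the genes that reached 5 TPM in no TAC library and so had to differ, and nothing is read from counts or medians that include them. Of the other 12, all had lower log2 means, 5 were lower at an unadjusted limma p of 0.05, against 0.381% of the followed genes, and 2, Ccn1 and Klf2, had TAC libraries entirely below the sham libraries, against 0.763%. Counting every list gene in the table, whatever its level, 29 of 29 had lower log2 means after TAC (median -1.21). That count and median include the 6 genes as well, and nothing is read from them. The libraries after TAC were close to each other: the median SD of the 18 genes was 0.10 on the log2 scale after TAC and 1.57 after sham. All 18 were highest in sham replicate 3 and 17 were lowest among the shams in replicate 4. The median log2 level of the 18 genes was 4.43, 4.11, 6.70 and 3.27 in the sham libraries and 3.25, 3.17 and 3.24 after TAC. In TPM, sham replicate 4 was thus at nearly the TAC level for these genes. Over all followed genes the medians were 3.98, 3.79, 4.19 and 2.92 after sham and 3.72, 3.64 and 3.75 after TAC. There sham replicate 4 was below every TAC library.

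**Figure D1:**
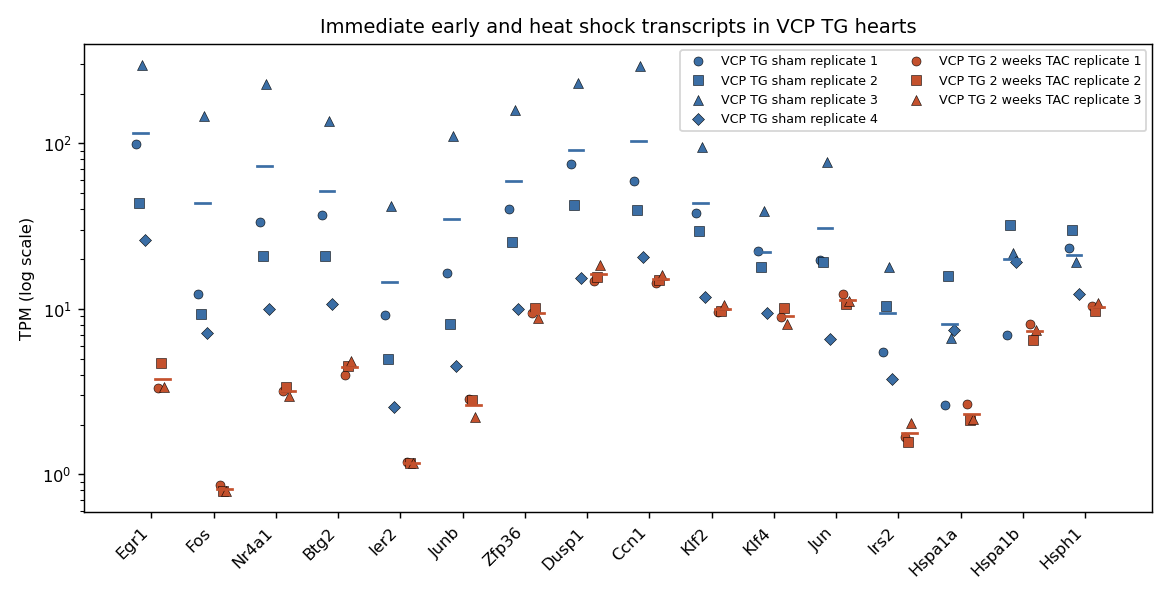
Level in TPM (log axis) of 16 immediate early, insulin signalling and heat shock genes in the 4 VCP TG sham libraries (blue) and 3 VCP TG libraries after 2 weeks of TAC (orange). Each symbol is 1 library and each bar a group's arithmetic mean. Sham replicate 3 was the highest sham library for all immediate early genes shown, and the 3 TAC libraries lay close together.

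Fos, which encodes a subunit of the AP-1 transcription factor, was at 12.3, 9.34, 146 and 7.15 TPM after sham and at 0.868, 0.794 and 0.794 TPM after TAC. Its groups did not overlap, and sham replicate 3 was far above the other shams. The log2 fold change was -3.47 ± 1.03 (SE; limma, adjusted p = 0.473). Junb, another AP-1 subunit, was at 16.4, 8.16, 112 and 4.54 TPM after sham and at 2.85, 2.83 and 2.21 TPM after TAC, again without overlap. Nr4a1, an orphan nuclear receptor induced by stress, was at 33.4, 20.99, 229 and 9.97 TPM after sham and at 3.20, 3.38 and 3.00 TPM after TAC. For Nr4a1 the lowest sham library stood above every TAC library, and the log2 fold change was -3.15 ± 0.99 (limma, adjusted p = 0.509).

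Btg2, an antiproliferative gene that recruits mRNA deadenylases, was at 37.0, 20.8, 137 and 10.7 TPM after sham and at 3.98, 4.51 and 4.84 TPM after TAC. Its groups did not overlap, and the log2 fold change was -2.65 ± 0.69 (limma, adjusted p = 0.221). Ier2, an early response nuclear protein, was at 9.18, 5.02, 41.6 and 2.57 TPM after sham and at 1.19, 1.17 and 1.18 TPM after TAC. These groups did not overlap either. Ccn1, a secreted matrix protein, and Klf2, an endothelial transcription factor induced by shear stress, were lower by smaller amounts, with log2 fold changes of -1.96 ± 0.77 and -1.67 ± 0.51 (limma, adjusted p = 0.684 and 0.238). Zfp36, which destabilizes inflammatory mRNAs, Dusp1, a phosphatase that switches off MAP kinases, and Klf4 had log2 fold changes of -1.83, -1.80 and -1.04. Their groups overlapped because sham replicate 4 was among the TAC values.

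How many of these genes passed varied with the libraries in the fit. Without sham replicate 3, in which the list was highest, limma called 12 genes lower (0.0862% of 13921), 7 of them followed genes. Of those 7, 6 were on the immediate early list: Egr1, Fos, Nr4a1, Btg2, Ier2 and Junb. These 6 reached 5 TPM in no TAC library and so had to differ, and nothing is read from how many of them passed. Their fold changes were smaller there, for example -3.38 for Egr1 and -2.52 for Fos (limma, adjusted p = 3.06e-05 and 5.18e-05). It also called 90 followed genes higher, in a fit where 3.48% of all genes were called higher. The immediate early list median was then -1.14, with 15 of 18 members below 0, against 0.10 and 2552 of 7603 over all followed genes. Without sham replicate 4 the list median was -2.29 and all 18 were below 0, but no followed gene passed. Over all followed genes the median was then -0.29, with 6501 of 7603 below 0. Both list medians include the 6 genes that had to differ. Egr1, Fos, Nr4a1, Btg2 and Ier2, all among the 6, also passed when any 1 of the 3 TAC libraries was left out. In all, 5, 9 and 6 followed genes were called lower in these fits, and the cause of the added calls was not tested. Whether the atrial and red blood cell content of sham replicate 3 bears on these genes was not tested.

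A few of these genes hold known response elements just before their start. Promoter sequence (RefSeq, GRCm38.p6) was at hand for 16 of the 18 list members, and the 250 bases before each start were searched for 3 motifs that read the same on both strands, and no match shared bases with a match of another motif. The other members, Ier2 among them, had no sequence at hand and were not searched. The cAMP response element TGACGTCA was found in 2 of 16 (Btg2 and Dusp1; 12.5%, against 1.77% of 27025 genes and 3.17% of followed genes). The CArG box, the site of serum response factor, was found in 1 (Zfp36; 6.25%, against 1.62% of all genes), and the heat shock element GAANNTTC in 1 (Jun; 6.25%, against 7.73%). The 200 bases before the start of Btg2 and Dusp1, with the cAMP response element in capitals, and of Zfp36, with the CArG box in capitals, are given 5′ to 3′ on the strand of the gene (all 3 on the minus strand), because these are the members in which a searched early response element was present. They lie at chr1:134079156-134079355, chr17:26508473-26508672 and chr7:28379229-28379428. The elements begin 166, 143 and 58 bases before the start.
Btg2: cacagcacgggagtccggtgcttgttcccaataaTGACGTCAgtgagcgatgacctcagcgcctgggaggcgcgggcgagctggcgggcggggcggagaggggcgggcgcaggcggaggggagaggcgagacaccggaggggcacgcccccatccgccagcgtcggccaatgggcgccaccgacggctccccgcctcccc
Dusp1: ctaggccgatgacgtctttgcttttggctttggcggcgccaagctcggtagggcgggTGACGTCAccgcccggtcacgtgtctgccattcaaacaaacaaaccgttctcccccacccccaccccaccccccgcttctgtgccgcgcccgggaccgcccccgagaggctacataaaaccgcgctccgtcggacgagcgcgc
Zfp36: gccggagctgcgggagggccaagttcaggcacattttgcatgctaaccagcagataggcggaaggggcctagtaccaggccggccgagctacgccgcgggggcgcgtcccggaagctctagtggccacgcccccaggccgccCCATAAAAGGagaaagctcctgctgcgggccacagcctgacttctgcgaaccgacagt

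A match is a run of letters and does not show that the site was bound in these hearts.

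**Figure D2:**
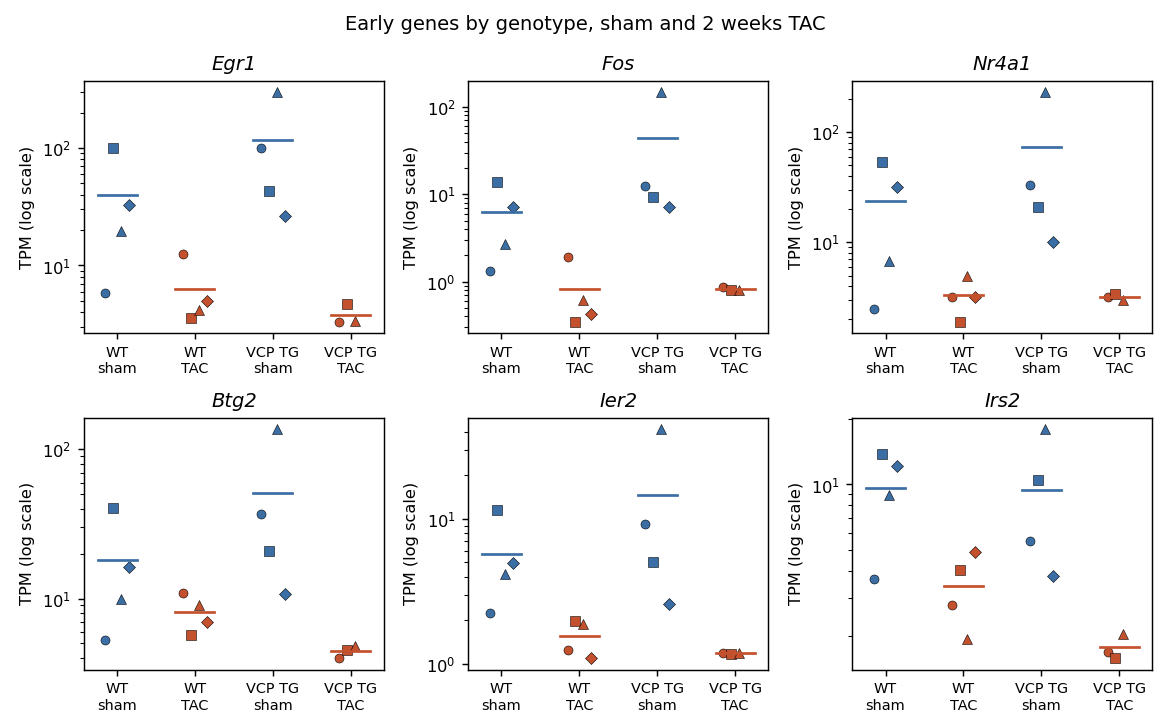
Level in TPM (log axis) of 6 early and insulin signalling genes in WT and VCP TG hearts after sham (blue) and 2 weeks of TAC (orange), 4 libraries a group and 3 for VCP TG TAC. Symbols are libraries and bars are arithmetic means. Levels after TAC were low in both genotypes, and sham levels ranged widely in both.

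The comparison with WT asked whether this pattern was particular to the transgene. In WT hearts all 18 members also had lower log2 means after TAC (median log2 fold change -1.03), with groups that did not overlap for 3 of them. Of the 7603 followed genes, 5286 were below 0 in WT (median -0.19). Egr1 was at 5.78 to 99.9 TPM in WT sham and at 3.58 to 12.5 TPM in WT TAC, so the WT groups overlapped. In the limma fit of all 15 libraries, 0 of the 18 had an unadjusted p under 0.05 for the difference between the genotypes' responses, against 5.01% of all genes. For Egr1 the difference of the responses had an unadjusted limma p of 0.116. Over all 15540 genes, 1 differed between the responses at an adjusted p of 0.05 (0.00644%), and it was not a followed gene. The smallest adjusted p among followed genes was 0.661, and 295 had an unadjusted p under 0.05. At 5 weeks of TAC, in a table deposited separately, VCP TG hearts had Egr1 at 55.6, 74.6 and 33.3 TPM and Btg2 at 11.5, 15.2 and 13.3 TPM. WT hearts at 5 weeks of TAC had Btg2 at 12.3, 50.7, 8.83 and 10.3 TPM, so the genotypes overlapped for Btg2. These levels were not tested against the 2-week libraries.

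Of the 12 genes named as lowest by the fixed rule, 7 were immediate early genes, and the others had roles in signalling and matrix turnover. Among the 7, Egr1, Fos, Nr4a1, Btg2 and Ier2 had to differ, so nothing is read from that count. Irs2, an adaptor that carries the insulin receptor's signal, was at 5.51, 10.5, 17.98 and 3.79 TPM after sham and at 1.69, 1.58 and 2.05 TPM after TAC. It reached 5 TPM in at least 3 sham libraries and in no TAC library, so it too had to differ. Its groups did not overlap and its log2 fold change was -1.71 ± 0.43 (limma, adjusted p = 0.0960). It passed without sham replicate 3 (-1.36; limma, adjusted p = 0.0313). Adamts1, a secreted protease, Otud1, a deubiquitinase, Pde7a, a cyclic AMP phosphodiesterase, and Fnip2, a partner of folliculin in nutrient sensing, had log2 fold changes of -1.67, -1.59, -1.14 and -1.14. None of these 4 passed (limma, adjusted p from 0.397 to 0.833), although their groups did not overlap. Pde7a and Fnip2 were not highest in sham replicate 3: Pde7a was highest in sham replicate 1 (47.0 TPM) and Fnip2 in sham replicate 2 (40.1 TPM), against at most 14.9 and 8.09 TPM after TAC.

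Among heat shock proteins and chaperones, which refold damaged proteins and hand others to the degradation machinery that VCP serves, 28 of 35 followed members had log2 fold changes below 0 (median -0.22). The 3 with an unadjusted limma p under 0.05, all lower (0.381% of followed genes were), were Hspa1a, Hspa1b and Hsph1, and none passed the adjusted threshold. Hspa1b, the stress-induced Hsp70, was at 6.93, 32.3, 21.7 and 19.3 TPM after sham and at 8.12, 6.53 and 7.48 TPM after TAC. Here sham replicate 1, not replicate 4, lay among the TAC values, and the log2 fold change was -1.16 ± 0.44 (limma, adjusted p = 0.474). Hspa1a was at 2.61, 15.9, 6.70 and 7.43 TPM after sham and at 2.66, 2.13 and 2.18 TPM after TAC, with the same sham library low. Hspa1a reached 5 TPM in at least 3 sham libraries and in no TAC library, so it had to differ. Nothing is read from the count of 3 genes, which includes it. Hsph1, a nucleotide exchange factor for Hsp70, was at 23.2, 30.0, 19.3 and 12.3 TPM after sham and at 10.4, 9.78 and 10.8 TPM after TAC, without overlap. Chordc1, a cochaperone of Hsp90, was at 10.3 to 19.9 TPM after sham and at 7.95 to 9.28 TPM after TAC. In WT the list had a median of 0.03, and 4 of the 35 differed between the genotypes' responses at an unadjusted limma p of 0.05, against 5.01% of all genes and 3.88% of followed genes, with none passing adjustment. Hsph1 had a log2 fold change of -0.90 in VCP TG and 0.32 in WT (unadjusted limma p of the difference 0.0233).

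The heat shock element stood before a larger share of these genes than of all genes. The letters GAANNTTC were present in the 250 bases before 10 of 28 list members with a promoter sequence (35.7%), against 7.73% of all genes and 6.03% of followed genes. The 200 bases before Hspa1a (chr17:34972157-34972356) and Hspa1b (chr17:34959239-34959438), both on the minus strand, are shown with the element in capitals because the 2 genes are near-identical copies: 199 of the 200 bases were the same. Reads from the 2 genes may not have been told apart, so their values are uncertain as separate genes.
Hspa1a: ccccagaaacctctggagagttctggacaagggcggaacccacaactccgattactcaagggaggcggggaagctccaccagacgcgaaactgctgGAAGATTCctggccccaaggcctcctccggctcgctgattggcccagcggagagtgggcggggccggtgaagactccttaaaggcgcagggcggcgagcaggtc
Hspa1b: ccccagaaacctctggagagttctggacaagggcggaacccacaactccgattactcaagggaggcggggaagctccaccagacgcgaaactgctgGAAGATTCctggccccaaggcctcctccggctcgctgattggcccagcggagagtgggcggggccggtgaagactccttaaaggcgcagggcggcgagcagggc

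**Figure D3:**
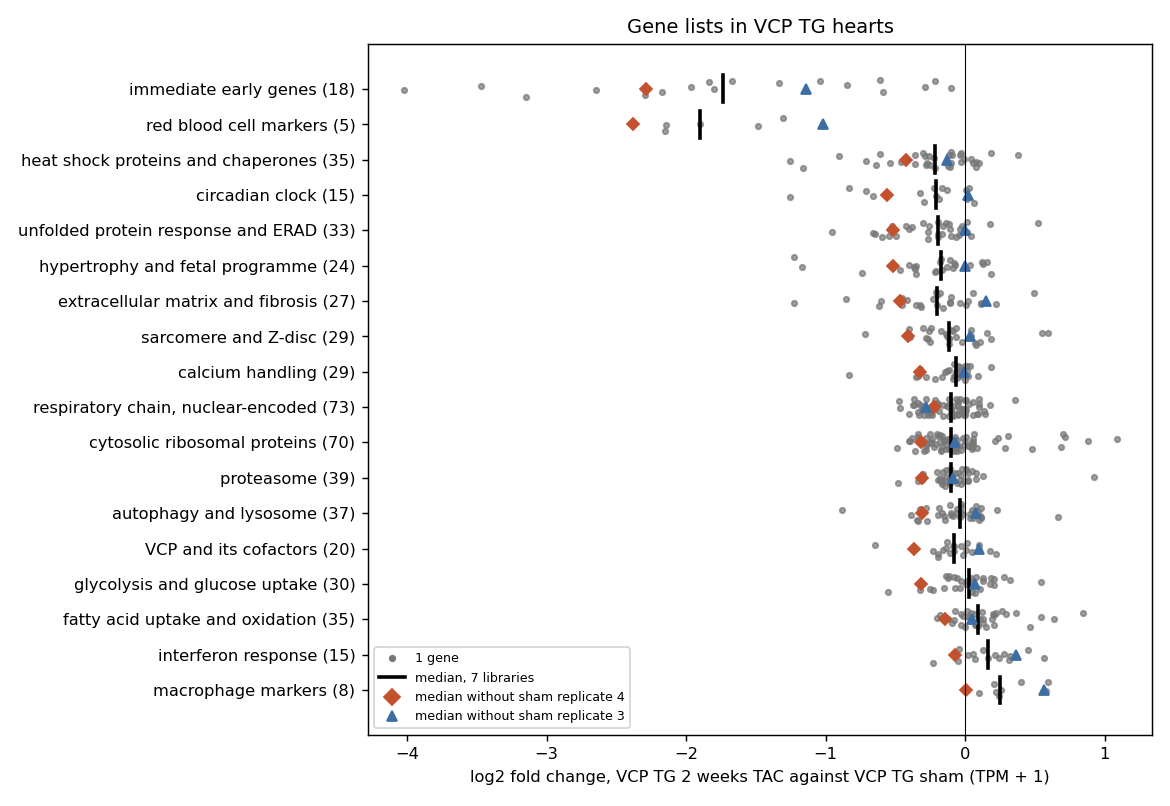
Log2 fold change of each followed gene (grey points) in 18 gene lists, VCP TG TAC against VCP TG sham, with the number of genes in brackets. Black bars are medians over the 7 libraries, and coloured symbols are medians without sham replicate 3 or without sham replicate 4. The immediate early and red blood cell lists lay below -1 in all 3, while the other medians lay between -0.56 and 0.57. The immediate early medians include the 6 genes that reached 5 TPM in no TAC library and had to differ, so nothing is read from them.

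No fetal programme or load marker passed the test. Of 24 followed members of the hypertrophy list, 0 had an unadjusted limma p under 0.05, which is near the 2.35% of all followed genes. The groups were without overlap for 0 of the 24. The list's median log2 fold change was -0.18, and 0.00 without sham replicate 3, against -0.03 and 0.10 over all followed genes. Nppa, the atrial natriuretic peptide gene, was at 21.7, 95.5, 4864 and 612 TPM after sham and at 198, 1781 and 23.6 TPM after TAC. It was high in the libraries with high atrial marker sums, a list that holds Nppa itself, and its direction turned without sham replicate 3 (log2 fold change -0.47 ± 2.42 with it, 0.90 without it). Nppb, the brain natriuretic peptide gene, was at 87.6, 164, 407 and 50.8 TPM after sham and at 56.2, 86.1 and 40.2 TPM after TAC. These groups overlapped too (log2 fold change -1.17 ± 0.59; limma, adjusted p = 0.989). Myh7, the beta myosin heavy chain, was at 125 to 640 TPM after sham and at 210 to 285 TPM after TAC, and Acta1, skeletal actin, at 119 to 767 and at 243 to 364 TPM. Ankrd1, a stretch-responsive sarcomere protein, and Ccn2, a profibrotic matrix protein, had log2 fold changes of -0.74 ± 0.42 and -1.23 ± 1.04. The difference of the Ankrd1 responses had an unadjusted limma p of 0.0160 (limma, adjusted p = 0.872), with 0.72 in WT. Of the 24 list members, 1 had an unadjusted limma p under 0.05 for the difference, near the 3.88% of all followed genes.

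**Figure D4:**
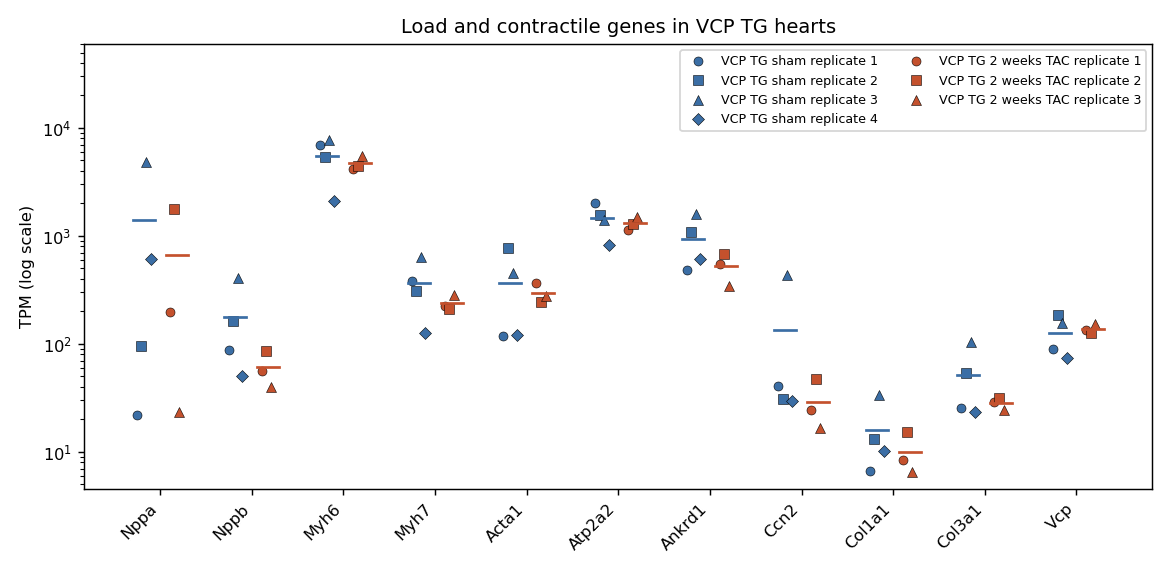
Level in TPM (log axis) of load, contractile and matrix genes and of Vcp in the 4 VCP TG sham libraries (blue) and 3 VCP TG libraries after 2 weeks of TAC (orange). Symbols are libraries and bars are arithmetic means. The groups overlapped for every gene shown, and sham replicate 3 was the highest library for Nppa, Nppb, Myh6, Myh7, Ankrd1, Ccn2, Col1a1 and Col3a1.

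Contractile and calcium-handling genes overlapped in the same way. Myh6, the main adult myosin of the mouse ventricle, was at 6883, 5329, 7791 and 2112 TPM after sham and at 4200, 4446 and 5446 TPM after TAC. Its log2 fold change was -0.09 ± 0.42. Atp2a2, the calcium pump of the sarcoplasmic reticulum, was at 823 to 2016 TPM after sham and at 1142 to 1485 TPM after TAC (-0.09 ± 0.37). Of 29 followed sarcomere genes and 29 calcium-handling genes, 0 had an unadjusted limma p under 0.05, again near the 2.35% of all followed genes.

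The matrix list had 20 of 27 members below 0, as had 4259 of 7603 followed genes. Its median of -0.20 became 0.15 without sham replicate 3, against -0.03 and 0.10 over all followed genes. Col1a1, the main fibrillar collagen chain, was at 6.59, 13.2, 33.9 and 10.2 TPM after sham and at 8.41, 15.1 and 6.49 TPM after TAC. Col3a1 was at 23.5 to 104 TPM after sham and at 24.2 to 31.4 TPM after TAC. For both collagens sham replicate 3 was highest. Fibroblast markers summed to 1475 TPM in that library and to 565 to 844 TPM in the other 6 libraries, and their part in the matrix values was not tested.

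No proteostasis gene outside the chaperones passed either. Vcp was at 89.1, 186, 156 and 73.5 TPM after sham and at 135, 125 and 151 TPM after TAC, all within the sham range (log2 fold change 0.22 ± 0.39). Of 20 followed VCP cofactors and 37 autophagy and lysosome genes, 0 had an unadjusted limma p under 0.05, near the 2.35% of all followed genes. The unfolded protein response and ERAD list, the pathway in which VCP extracts misfolded proteins from the endoplasmic reticulum, had 28 of 33 below 0 (median -0.19, and 0.00 without sham replicate 3). Over all followed genes these medians were -0.03 and 0.10. In the list, 1 member had an unadjusted limma p under 0.05, near the 2.35% of all followed genes. It was Ppp1r15a, a phosphatase subunit that restores translation after stress (log2 fold change -0.95 ± 0.45; limma, adjusted p = 0.841). Manf, a factor released under endoplasmic reticulum stress, had a log2 fold change of -0.66 ± 0.40 in VCP TG and 0.58 in WT, with an unadjusted limma p of 0.0351 for the difference. Of the 33 list members, 3 had an unadjusted limma p under 0.05 for the difference, against 3.88% of followed genes, and none passed adjustment. Among 39 proteasome subunits, 29 were below 0, and 1 had an unadjusted limma p under 0.05, near the 2.35% of all followed genes. It was Psmc2, which was higher (48.6, 42.4, 80.6 and 43.5 TPM after sham, 136, 76.4 and 93.8 TPM after TAC). Its groups overlapped through sham replicate 3.

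No endothelial or circadian clock gene passed. The 13 followed endothelial markers had a median of -0.09 (0.12 without sham replicate 3), against -0.03 (0.10) over all followed genes. Of the 13, 1 had an unadjusted limma p under 0.05, against 2.35% of all followed genes. That 1 was Egfl7, a vascular matrix protein, which was at 148, 99.4, 148 and 45.9 TPM after sham and at 41.2, 36.0 and 54.5 TPM after TAC. It overlapped only with sham replicate 4 (log2 fold change -1.19 ± 0.42; limma, adjusted p = 0.385). Notch1, Notch4 and the ligand Dll4, named after their values were seen, had log2 fold changes of -0.90, -0.87 and -0.95, and their groups overlapped. Circadian clock genes had a median of -0.21 over 15 members (0.02 without sham replicate 3), against the same -0.03 (0.10) over all followed genes. Nr1d1, a clock repressor, was at 18.5 to 58.8 TPM after sham and 17.8 to 19.3 TPM after TAC. The period gene Per1 was at 9.38 to 90.8 and at 8.12 to 12.01 TPM.

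Red blood cell transcripts were lower after TAC in all 5 followed members (median log2 fold change -1.90, and -1.02 without sham replicate 3), with 0 passing. Hbb-bs, an adult beta globin, was at 125, 50.5, 936 and 82.9 TPM after sham and at 30.9, 39.9 and 28.8 TPM after TAC. The groups did not overlap. Alas2, the first enzyme of heme synthesis in red cells, was at 11.1 to 205 TPM after sham and at 6.23 to 10.3 TPM after TAC, and Hba-a1, an alpha globin, at 6.97 to 216 and at 3.81 to 7.53 TPM. In WT the list's median was 0.56.

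The followed genes that passed as higher after TAC were Mup9 and Srsy. Mup9, a major urinary protein gene (chr4:60418046-60421952), was at 1.43, 0.998, 3.38 and 3.77 TPM after sham and at 20.6, 8.09 and 11.0 TPM after TAC. The groups were apart, and the log2 fold change was 2.07 ± 0.42 (limma, adjusted p = 0.0276). Srsy, a multicopy Y-linked gene related to Sly (chrY:17935713-17937330), was at 1.31, 1.11, 3.92 and 1.73 TPM after sham and at 15.04, 5.95 and 8.10 TPM after TAC (1.82 ± 0.40; limma, adjusted p = 0.0485). Both have near-identical copies in the genome, so which copy the reads came from is uncertain. Both calls were lost without sham replicate 1, 2 or 4 or TAC replicate 1, with limma's adjusted p from 0.0586 to 0.190 for Mup9 and from 0.117 to 0.322 for Srsy. Of 11 other settings, Mup9 was lost in 6 (limma, adjusted p from 0.0700 to 0.323) and Srsy in 7 (from 0.0627 to 0.324).

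Part of the higher genes had the same order over the libraries as olfactory and vomeronasal receptor genes. The mean level of 1344 such receptor genes, which serve smell in the nasal epithelium, was 0.0833, 0.0559, 0.292 and 0.121 TPM after sham and 0.841, 0.311 and 0.450 TPM after TAC. It was highest in TAC replicate 1, then replicate 3, then replicate 2, then sham replicate 3. Of 46 followed genes with an unadjusted limma p under 0.05 and no overlap, 32 were higher, and 18 of these 32 had the same order of their 4 highest libraries. At that p alone, 1.97% of followed genes were higher (5.24% of all genes tested). Without overlap alone, 0.802% were higher (3.06% of all genes tested). The order puts the 3 TAC libraries on top, so only higher genes without overlap can follow it, and 21 of the 61 such followed genes did (0.276% of all 7603). Of the 12 genes named as highest, 8 followed it: Srsy, Sly, Vmn2r55, Ssbp2, Olfr613, Cldn34c1, Hsd3b2 and Fgd4. Srsy reached 5 TPM in all 3 TAC libraries and in no sham library and had to differ. The counts above include it, so nothing is read from them. Ssbp2, a single-stranded DNA binding protein and the most abundant of these, was at 89.1, 57.1, 215 and 86.4 TPM after sham and at 475, 237 and 283 TPM after TAC. Fgd4, an activator of the GTPase Cdc42, was at 57.8 to 193 and at 199 to 413 TPM. Whether the receptor level bears on these genes was not tested.

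**Figure D5:**
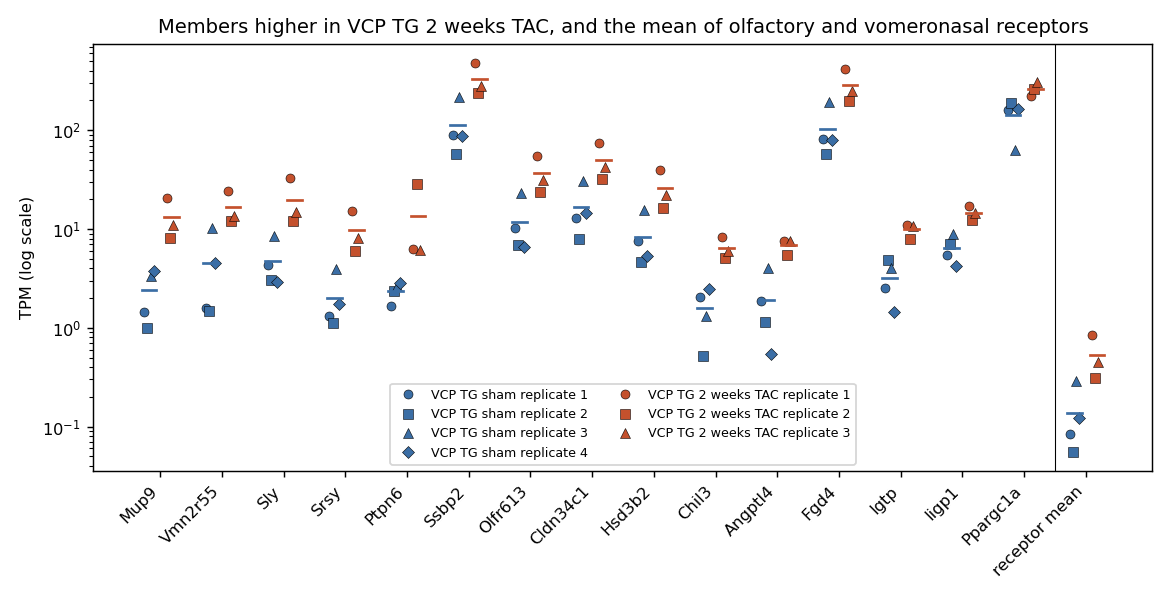
Level in TPM (log axis) of genes higher after TAC in VCP TG hearts, with the mean of 1344 olfactory and vomeronasal receptor genes at the right. Blue symbols are the 4 sham libraries, orange symbols the 3 TAC libraries, and bars arithmetic means. TAC replicate 1 was highest for 10 of the 12 genes named as highest and for the receptor mean, while Ptpn6 was highest in TAC replicate 2 and Angptl4 and Ppargc1a in TAC replicate 3.

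Other higher genes did not share that order. Angptl4, a secreted inhibitor of lipoprotein lipase that is induced by fatty acids, was at 1.86, 1.14, 4.07 and 0.548 TPM after sham and at 7.50, 5.42 and 7.64 TPM after TAC. It reached 5 TPM in all 3 TAC libraries and in no sham library, so it had to differ. Its log2 fold change was 1.56 ± 0.40 (limma, adjusted p = 0.107), against -0.30 in WT. Ppargc1a, the coactivator that drives mitochondrial biogenesis and fatty acid oxidation, was at 161, 188, 62.4 and 163 TPM after sham and at 222, 260 and 308 TPM after TAC. Every TAC library was above every sham library (0.97 ± 0.40; limma, adjusted p = 0.621), and the difference from the WT response had an unadjusted limma p of 0.0105. That difference did not pass adjustment. Ucp3, a mitochondrial uncoupling protein regulated with fatty acid use, was at 1.40 to 8.27 TPM after sham and at 8.59 to 12.1 TPM after TAC. The list of fatty acid genes as a whole had 25 of 35 above 0, with a median of 0.09. That median became -0.14 without sham replicate 4 and -0.21 when TPM was rescaled to nuclear genes. Over all followed genes it became -0.29 and -0.33. In WT the list's median was -0.42, against -0.19 over all followed genes. At an unadjusted limma p of 0.05, 8 of the 35 differed between the genotypes' responses, against 3.88% of followed genes. None of them passed adjustment.

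No gene of the interferon list passed. The fixed interferon list had 12 of 15 followed members above 0, as had 3344 of 7603 followed genes. Its median was 0.17, and -0.08 without sham replicate 4, against -0.03 and -0.29 over all followed genes. Of the 15, 0 had an unadjusted limma p under 0.05, near the 2.35% of all followed genes. Igtp and Iigp1, named after their values were seen, encode GTPases that act on intracellular parasites in interferon-treated cells. Igtp was at 2.53, 4.90, 4.00 and 1.46 TPM after sham and at 11.1, 7.88 and 10.7 TPM after TAC. Iigp1 was at 5.41, 6.97, 8.83 and 4.21 TPM after sham and at 16.9, 12.3 and 14.5 TPM after TAC. In both every TAC library was above every sham library and neither passed (limma, adjusted p = 0.135 and 0.347), and Igtp reached 5 TPM only after TAC. Iigp1 followed the receptor order and Igtp did not. All 8 followed macrophage markers were above 0 (median 0.25, and 0.00 without sham replicate 4, against -0.03 and -0.29 over all followed genes). Their part in the values above was not tested.

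Chil3, a chitinase-like protein of macrophages, and Ptpn6, a phosphatase of blood cells, had every TAC library above every sham library without passing, with log2 fold changes of 1.57 ± 0.37 and 1.78 ± 0.44 (limma, adjusted p = 0.0718 and 0.0960). Ptpn6 was at 1.66 to 2.85 TPM after sham and at 6.23, 28.2 and 6.17 TPM after TAC, and its log2 fold change was 1.11 without TAC replicate 2. Because Ptpn6 reached 5 TPM in every TAC library and in no sham library, it had to differ. Among 70 cytosolic ribosomal proteins, 49 were below 0 and 21 above. In 5 of the 70 every TAC library was above every sham library (0.802% of all followed genes), and in 2 every one was below (0.763%). Rps2 and Rpl29, both with many processed pseudogenes, were among the 5, at 4.78 to 10.2 against 12.9 to 17.1 TPM and at 3.57 to 5.02 against 7.80 to 9.73 TPM. Ltbp1, which stores latent TGF-beta in the matrix, was at 35.6, 21.8, 68.8 and 22.3 TPM after sham and at 138, 62.3 and 85.7 TPM after TAC, and its groups overlapped through sham replicate 3.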

How the data were processed

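The authors deposited TPM (transcripts per 1000000 transcripts) for each gene and library, in 1 table for the sham and 2-week libraries and 1 for the 5-week libraries; each library sums to 1000000, so sequencing depth is unknown. Libraries were made with a stranded mRNA kit, per the labels' protocols. The submitters' processing notes name Trimmomatic 0.35, kallisto 0.43.1, STAR 2.5.4b, DESeq2 and GRCm38, without saying which step made the TPM. Gene types and positions were matched by identifier to GENCODE M21 (30074 of 30735 matched).

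Genes at 1 TPM or more in at least 3 of the 7 libraries were tested on log2(TPM + 1) with limma 3.58.1 in R 4.3.3 (variance trend, robust empirical Bayes, two-sided, Benjamini-Hochberg adjustment over all genes tested, threshold 0.05). Fold changes are on that scale, which understates the change of low genes. The fit used only the 7 VCP TG libraries. The difference between genotypes used a fit of 15 libraries. The method was tested on simulated data. Named genes are 8 fixed heart genes, up to 12 per direction (those that passed, then those with an unadjusted p under 0.05, without overlap), and list members with the 5 smallest p; others are said to be chosen after their values were seen. Junb, Dusp1, Zfp36 and Klf4 were chosen in this way. Members and lists were chosen with earlier results of these data known. Alternatives covered scaling, pseudocount, filter, variance model, replicate block and leaving out libraries.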

Additional observations from a re-analysis of the deposited data

Results flagged for a closer look

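Fos in VCP TG sham replicate 3 was at 146 TPM, far from the other 3 sham libraries (7.15 to 12.3 TPM). Such libraries were marked by a cutoff that chance crosses in about 1 in 20 groups of 4 when values are normally distributed. TPM need not be so distributed, and Fos was 1 of many genes, so that rate may not hold here. The same library was the highest sham for all 18 followed immediate early genes. Without it the log2 fold change of Fos was -2.52 in place of -3.47, and every TAC library was still below every sham library. Fos is among the genes that reached 5 TPM in no TAC library and so had to differ.

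The response to TAC differed between the genotypes for 1 gene, Hbb-bh0, annotated as an unprocessed pseudogene of the beta globin cluster and not among the followed genes. It was listed at 0 in all 4 VCP TG sham libraries and in the 8 WT libraries of the same table, and at 3.87, 3.13 and 3.80 TPM in the 3 VCP TG libraries after 2 weeks of TAC. In the separately deposited 5-week table it was listed at 0 in all 3 VCP TG libraries and at 0, 2.87, 2.69 and 5.17 TPM in the 4 WT libraries after TAC. The difference of the responses was 2.20 ± 0.34 on the log2(TPM + 1) scale (limma, adjusted p = 0.0340), and no fold is given against groups listed at 0.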

How the results depend on the processing

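With TPM as deposited, depth is unknown and its limit cannot be stated. The main count of 53 genes in the VCP TG comparison (2 followed genes higher, 1 lower) stayed within 1.5 times with nuclear scaling (56 in all, 0 higher and 2 lower followed genes), a pseudocount of 5 (71, 4 and 0) and, chosen after seeing the data, nuclear scaling without sham replicate 4 (70, 1 and 10). It was 120 (16 and 0) with all 4 groups fitted together, 12 (0 and 0) after quantile normalization, 7 (0 and 0) with a pseudocount of 0.1, 15 (0 and 0) with no filter, 7 (0 and 0) with a mean filter of 5 TPM, 31 (1 and 0) without a variance trend, 978 (184 and 169) with array weights, 503 (193 and 48) without the libraries rich in atrial transcripts, and 514 (95 and 110) without sham replicates 3 and 4, also chosen after seeing the data. Leaving out 1 library gave 8 (without sham replicate 4) to 496 (without sham replicate 3) genes, with 0 to 90 followed genes higher and 0 to 9 lower. Calls were 96.2% higher in the main fit, 74.8% with array weights, 84.6% without TAC replicate 1, 87.5% without sham replicate 4, 85.7% with a pseudocount of 0.1, 72.9% with nuclear scaling without sham replicate 4 and 73.5% without sham replicates 3 and 4. Scaling to nuclear genes moved the median of all followed genes from -0.03 to -0.33. The causes of these shifts were not tested.

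The difference between genotypes, 1 gene in the main fit, gave 4 with nuclear scaling, 2 after quantile normalization, 0 and 5 with pseudocounts of 0.1 and 5, 24 with no filter, 0 with the mean filter, 4 without a trend, 36 with array weights, 0 without the atrial-rich libraries, and 0 to 4 without 1 library.

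Replicate numbers did not pair the libraries: deviations of same-numbered libraries correlated at -0.24, 0.03 and -0.22. With the number as a block, which drops sham replicate 4 from the contrast, 3 genes (0 followed genes higher, 0 lower) and 0 for the difference passed; Acta1 was at -0.25 and Vcp at -0.0024 under the block.

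Of 62 named genes, 6 turned direction under some setting, and none of the 6 had passed. Acta1 (0.13) was at -0.19 with nuclear scaling, -0.37 with that and no sham replicate 4, -0.054 without sham replicates 3 and 4, and -0.25 to 0.64 without 1 library. Vcp (0.22) was at -0.10 and -0.13 under the 2 nuclear scalings and ranged from -0.0024 to 0.44 without 1 library. Nppa (-0.47) was at 0.75 with array weights, 0.58 without atrial-rich libraries, 2.14 without sham replicates 3 and 4, and -2.02 to 1.07 without 1 library. Col1a1 was at 0.0096 without sham replicates 3 and 4; without 1 library Atp2a2 ranged from -0.34 to 0.090 and Myh6 from -0.50 to 0.13.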
